A study of Mus musculus with 8 samples.

Results

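The mitochondrial ribosomal proteins were read as the 73 genes on the array whose symbol begins with Mrpl or Mrps and a number, out of 17097 genes with a name. The names assign 46 of them to the large (39S) subunit and 27 to the small (28S) subunit. Each gene was read through 1 probe set, the one with the highest mean over the 8 arrays. The choice used level and no comparison. Most of these arrays are precipitates (described below), so it can favour probe sets that are high in them. The genes Mrps28, Mrps18c, Mrpl51, Mrpl22 and Mrpl45 were not analysed here.

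The labels describe males of 2 genotypes, WT and HD, killed when 7 to 8 months old. Their striatal tissue was combined into 1 pool per genotype (the design text mentions 4 mice) and crosslinked using formaldehyde. Each lysate was divided into 4 fractions. INPUT is the precleared lysate, and the other 3 are RNA precipitated with rabbit IgG (IgG RIP), with an antibody against CPEB1 (CPEB1 RIP) or with an antibody against CPEB4 (CPEB4 RIP). RIP, RNA immunoprecipitation, recovers RNA together with the protein that an antibody binds, and IgG measures RNA that sticks without that protein. The 8 groups are therefore the 4 fractions of the WT pool and the 4 fractions of the HD pool, with 1 array each. HD is not spelled out in the labels, and allele and strain are not given in them. Since animals were pooled, p-values reflect how far the 2 pools disagree about differences between fractions, and not the spread between animals. In a pool, fewer cells of a type and less RNA per cell cannot be told apart.

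Mitochondria carry their own ribosome, which makes a small set of proteins, all of them hydrophobic subunits of the respiratory chain and ATP synthase. Its RNAs come from the mitochondrial genome, while all of its proteins are encoded in the nucleus, translated on cytosolic ribosomes and imported. Some of these proteins have a counterpart in the bacterial ribosome and others were added in mitochondria. CPEB proteins bind U-rich elements in 3′ untranslated regions and regulate poly(A) tail length and translation. The comparison of each antibody with IgG asks which transcripts of this family came down with CPEB1 or CPEB4 beyond the IgG background. By known homology 44 of the genes have a bacterial counterpart and 28 do not. Mrps36, whose product is now placed in the 2-oxoglutarate dehydrogenase complex, was put in neither class. Mrps18a and Mrps30 keep their small-subunit names, although their products lie in the large subunit in known structures.

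All values are deposited log2 array values, and a difference of 1 is 2-fold. Values of different probe sets are not RNA amounts on a common scale, so levels are set side by side only within a gene or over the same genes. The lowest value over the family was 3.47 and the highest 9.63. In INPUT the highest means of the 2 pools were those of the probe sets of Mrpl4 (8.75), Mrps5 (8.69), Mrpl21 (8.43), Mrps18b (7.94), Mrps7 (7.59) and Mrpl57 (7.37). The lowest were those of Mrps33 (3.69), Mrpl32 (3.88), Mrpl15 (4.06) and Mrps27 (4.13). The median of the 73 genes was 5.79 in INPUT of the WT pool and 6.06 in INPUT of the HD pool. With IgG it was 5.80 (WT) and 6.02 (HD). With CPEB1 it was 6.55 (WT) and 5.84 (HD), and with CPEB4 6.25 (WT) and 6.14 (HD). The WT array of the CPEB1 RIP thus had the highest median of the 8 arrays. Across genes, the 2 pools correlated least in IgG RIP, with Pearson's r of 0.64 over the 73 genes, and most in CPEB4 RIP, with r of 0.85; genes are not independent replicates and share the array.

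**Figure D1:**
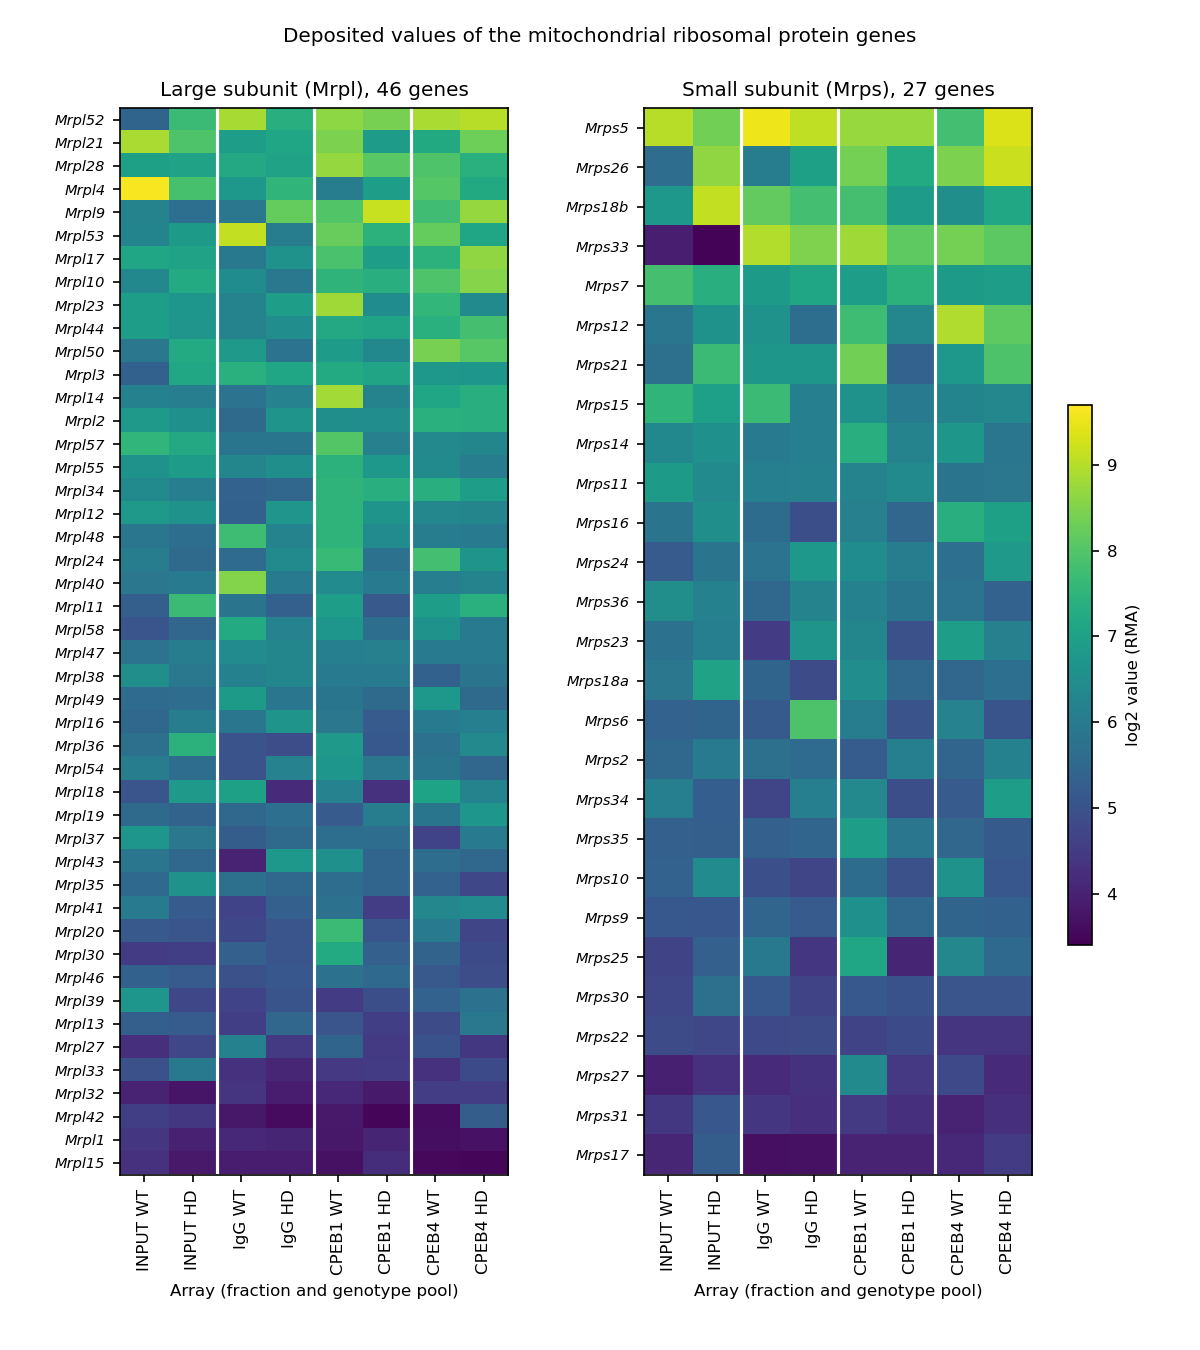
The deposited log2 value of each of the 73 genes (rows, ordered by mean over the arrays) on each of the 8 arrays (columns, by fraction and genotype pool), with the large subunit on the left and the small subunit on the right. Mrps33 is dark in the INPUT columns (3.92 and 3.47) and bright in all 6 precipitates (8.11 to 8.98); colours compare arrays within a gene, not RNA amounts between genes.

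Genes were tested where the mean over the 8 arrays exceeded 4.23, which is the median over the means of all probe sets. This left 11345 genes, of which 68 belong to the family. The genes just inside were Mrps31 with a mean of 4.40 and Mrps27 with 4.56, and just outside lay Mrps17 with 4.17 and Mrpl32 with 4.14. Mrpl42, Mrpl1 and Mrpl15 were also below. A gene was called at a Benjamini-Hochberg adjusted p under 0.05 in limma, with the genotype pool as a block over all 8 arrays. As a second count, genes were taken that differed 2-fold in the same direction in both pools.

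The tissue label was checked on the INPUT arrays. Of 8 markers of medium spiny neurons, the main neurons of striatum, 7 were above 4.23 in both INPUT arrays, and Tac1 was below (3.22 and 3.92). All 4 oligodendrocyte, all 5 microglia, all 3 endothelial, all 4 choroid plexus and ependyma and both blood markers were above it too, as were 4 of 5 astrocyte markers. Ttr, a transcript of choroid plexus, had 6.60 in INPUT of the WT pool and 10.49 in INPUT of the HD pool. The deposited values were also spread more widely on some arrays, with an SD over all genes tested of 1.28 in IgG RIP of the HD pool and of 1.79 in CPEB4 RIP of the WT pool.

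Mrps33, a small-subunit protein with no bacterial counterpart, was the only gene of the family called in any of the 6 comparisons of fractions. Its INPUT values were 3.92 (WT) and 3.47 (HD). With IgG it had 8.98 (WT) and 8.49 (HD), with CPEB1 8.79 (WT) and 8.14 (HD), and with CPEB4 8.39 (WT) and 8.11 (HD). All 6 precipitates were far above both INPUT arrays, with no overlap, and the IgG array was the highest in each pool. Both INPUT values lie below 4.23, near the low end of the array. The gene's mean of 7.29 exceeded 4.23 only through the precipitates, the same arrays that are compared with INPUT. The filter was thus not independent of this comparison, and fold sizes against INPUT are given as bounds. With INPUT set to 4.23, Mrps33 was at least 22.7-fold higher with IgG, at least 18.8-fold higher with CPEB1 and at least 16.2-fold higher with CPEB4. On the measured values the fitted log2 differences were 5.04 ± 0.25 with IgG (SE, 2 arrays a fraction; limma adjusted p = 0.0322), 4.78 ± 0.25 with CPEB1 (limma adjusted p = 0.0287) and 4.55 ± 0.25 with CPEB4 (limma adjusted p = 0.0229). With all 17097 genes tested and no filter on the mean, the limma adjusted p was 0.0244, 0.0318 and 0.0201. These 3 comparisons share the INPUT arrays. Of the 11345 genes tested, 0.0176% were called higher with IgG, 0.0176% with CPEB1 and 1.34% with CPEB4. Mrps33 is thus a transcript whose signal rose in every precipitate, the IgG control included, and its level with either antibody was not above IgG in either pool. Leaving out any 1 of the 8 arrays ended the call in all 3 comparisons, with limma adjusted p from 0.0521 to 0.322, while the fitted difference stayed between 4.03 and 5.56 under every alternative run. It was read by a single probe set, so no second probe set could be compared.

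**Figure D2:**
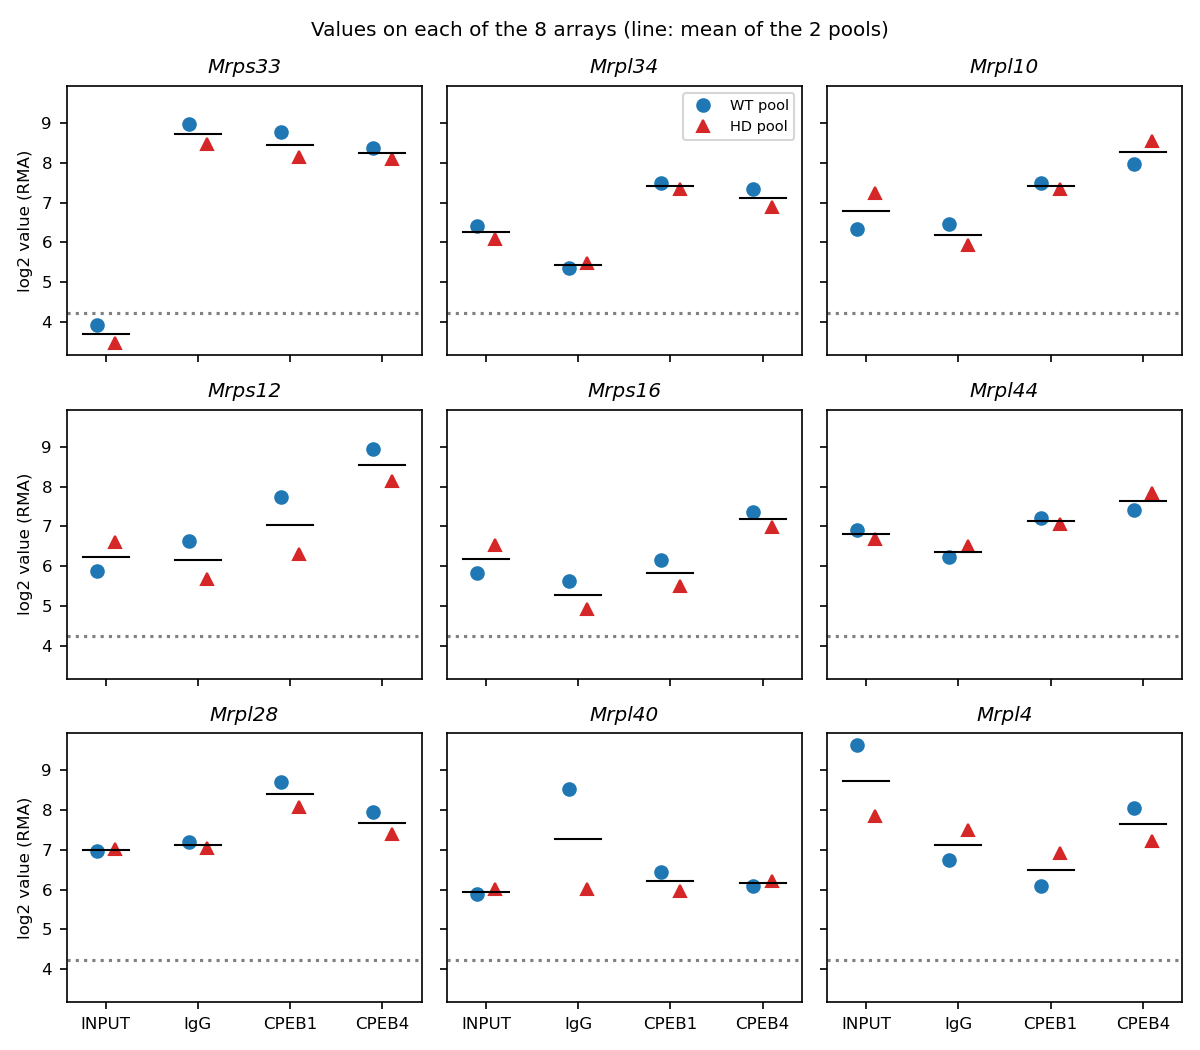
Deposited log2 values of 9 genes in INPUT, IgG RIP, CPEB1 RIP and CPEB4 RIP (circles, WT pool; triangles, HD pool; black line, mean of the 2 pools; dotted line, 4.23, the minimum mean for testing). Mrps33 is high in every precipitate; Mrpl34 has its lowest values with IgG (5.37 and 5.49), Mrps12 and Mrps16 their highest with CPEB4, Mrpl28 its highest with CPEB1, and Mrpl40 is high on the IgG array of the WT pool alone (8.52).

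In CPEB4 RIP against IgG RIP, the family leaned to higher values with CPEB4, but no member passed the test. By limma 0 of 68 genes were called, where 2.37% of all genes tested were called in either direction. Counting at p under 0.05 with no adjustment gave 9 genes, all higher with CPEB4, which is 13.2% of the 68 against 22.9% of all genes tested. Of the 68 genes, 11 were 2-fold higher in both pools (16.2%, against 14.3% of all genes tested), and 0 were 2-fold lower in both (against 0.996%). The share at 2-fold was thus near that of all genes. A further reading by sign gave 29 genes higher in both pools, 13 lower in both and 26 that went opposite ways; of all genes tested, 33.8% were higher and 42% lower in both. The median difference of the 73 genes was 0.27 (0.19 in the WT pool and 0.26 in the HD pool), beside -0.06 for all genes tested. It was 0.02 without the IgG array of the WT pool and -0.16 after quantile normalization (-0.24 for all genes tested), so its direction depends on the scaling. The gap to all genes was smaller with a filter at the 75th percentile. There the median over all genes tested was 0.34, and the family's is given at the end.

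The genes with the largest differences between CPEB4 and IgG were Mrps12, Mrps26, Mrpl10, Mrpl50 and Mrps16. Mrps12 is the counterpart of the bacterial protein S12, which lies at the decoding centre. It had 8.94 (WT) and 8.14 (HD) with CPEB4, against 6.62 and 5.67 with IgG and 5.88 and 6.60 in INPUT. Both CPEB4 arrays were above the other 6, and the difference from IgG was 2.39 ± 0.55 (limma adjusted p = 0.0984). Mrps16, the counterpart of S16, had 7.36 and 6.99 with CPEB4 against 5.62 and 4.92 with IgG, a difference of 1.91 ± 0.42 (limma adjusted p = 0.093). Its CPEB1 values, 6.15 and 5.49, fell within the range of INPUT and IgG.

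Mrpl10 belongs to the ribosomal stalk, where translation factors dock. Its CPEB4 values were 7.97 (WT) and 8.56 (HD), its CPEB1 values 7.49 and 7.35, and its IgG values 6.46 and 5.93. CPEB4 was above CPEB1 and CPEB1 above IgG in each pool. Over IgG the difference was 2.07 ± 0.42 with CPEB4 (limma adjusted p = 0.0795). Mrpl50, a large-subunit protein added in mitochondria, had 8.41 and 8.06 with CPEB4 against 6.82 and 5.79 with IgG (1.93 ± 0.60, limma adjusted p = 0.163). Its second probe set, near the floor of the array with a mean of 3.97, gave -0.11 (WT) and -0.20 (HD). Mrps26, a small-subunit protein also added in mitochondria, had 8.45 and 9.20 with CPEB4 against 6.08 and 6.97 with IgG. Its INPUT values lay far apart, 5.66 (WT) and 8.65 (HD), and the difference of 2.30 ± 0.93 had a limma adjusted p of 0.225. Its HD INPUT array thus lay above its WT CPEB4 array.

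Mrpl34, the counterpart of bacterial L34, came closest to the threshold. With CPEB4 it had 7.34 (WT) and 6.90 (HD), with CPEB1 7.49 and 7.34, with IgG 5.37 and 5.49, and in INPUT 6.42 and 6.09. The order of the fractions was the same in both pools: the antibodies highest, then INPUT, then IgG. The CPEB4 difference over IgG was 1.69 ± 0.27 (3.23-fold; limma adjusted p = 0.0501), and the CPEB1 difference was 1.98 ± 0.27 (3.95-fold; limma adjusted p = 0.134). Both share the IgG arrays, and against INPUT the differences were 0.87 with CPEB4 and 1.16 with CPEB1. A second probe set of Mrpl34 gave 1.93 (WT) and 0.52 (HD) for CPEB4 minus IgG, and 0.80 (WT) and -0.05 (HD) for CPEB1 minus IgG. The 2 probe sets therefore had the same sign for CPEB4 in both pools and for CPEB1 in the WT pool only.

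Mrpl44, a large-subunit protein related to RNase III, had 7.41 and 7.85 with CPEB4 against 6.23 and 6.50 with IgG, a difference of 1.27 ± 0.29 (limma adjusted p = 0.097). Its second probe set, near the floor of the array with a mean of 3.98, gave -0.28 (WT) and 0.24 (HD). The other genes at 2-fold over IgG in both pools were Mrpl17 (1.77 ± 0.56), Mrpl11 (1.59 ± 0.95), Mrpl41 (1.37 ± 0.51) and Mrpl14 (1.26 ± 0.78). Mrpl11, at the base of the stalk, shows how much the probe set matters. The probe set used had 6.94 and 7.40 with CPEB4 against 5.82 and 5.33 with IgG. Another had 8.56 (WT) and 6.97 (HD) with IgG against 4.13 and 6.99 with CPEB4, and so was lower with CPEB4 in the WT pool and level in the HD pool. Mrpl3, whose bacterial counterpart L3 borders the peptidyl transferase centre, differed the other way. The probe set used gave -0.66 (WT) and -0.41 (HD) for CPEB4 minus IgG, while a second had 6 and 6.99 with CPEB4 and 4.13 and 4.22 with IgG. Over the family, 38 genes have several probe sets, and of 56 other probe sets 36 had the sign of the one used in this comparison.

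At the low end, no gene was 2-fold lower with CPEB4 than with IgG in both pools. The 5 largest negative differences of the same sign in both pools were those of Mrps18b (-1.15 ± 0.81), Mrpl48 (-0.94 ± 0.44), Mrpl38 (-0.64 ± 0.33), Mrpl27 (-0.60 ± 0.54) and Mrpl35 (-0.55 ± 0.45). A second probe set of Mrpl48 gave 2.01 (WT) and -0.94 (HD). For Mrpl38 the others gave 0.48 and -0.04, and -0.11 and -0.08. Those of Mrpl27 and Mrpl35 were lower with CPEB4 in both pools. Mrps18b had 6.53 and 7.18 with CPEB4 against 8.18 and 7.82 with IgG, so its groups did not overlap, but limma gave an adjusted p of 0.399. Its paralog Mrps18a, descended from the same bacterial protein, differed by 0.44 ± 0.55, less than its error. For Mrpl12, the stalk protein that is also known as a partner of mitochondrial RNA polymerase, the pools went opposite ways (0.96 and -0.43). For Mrps22, a small-subunit protein added in mitochondria, all 8 values lay between 4.35 and 4.84.

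Within the family, the large subunit had a median CPEB4 minus IgG difference of 0.41 and the small subunit of 0.13. Of the large-subunit genes tested, 8 of 42 were 2-fold higher in both pools (19%), and of the small-subunit genes 3 of 26 (11.5%). Genes with a bacterial counterpart had a median of 0.41 and those without one of 0.10. At 2-fold were 7 of 40 (17.5%) and 4 of 27 (14.8%). All these shares lay near the 14.3% of all genes tested. These differences between the classes were not tested. The cytosolic ribosomal proteins, read in the same way, had a median of 1.04, with 20 of 66 at 2-fold in both pools (30.3%) and 1 called. The 32 subunits of respiratory complex I, which depends on the mitochondrial ribosome for its mitochondrially encoded part, had a median of 0.54, with 4 at 2-fold (12.5%) and 0 called by limma (3 at an unadjusted p under 0.05).

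**Figure D3:**
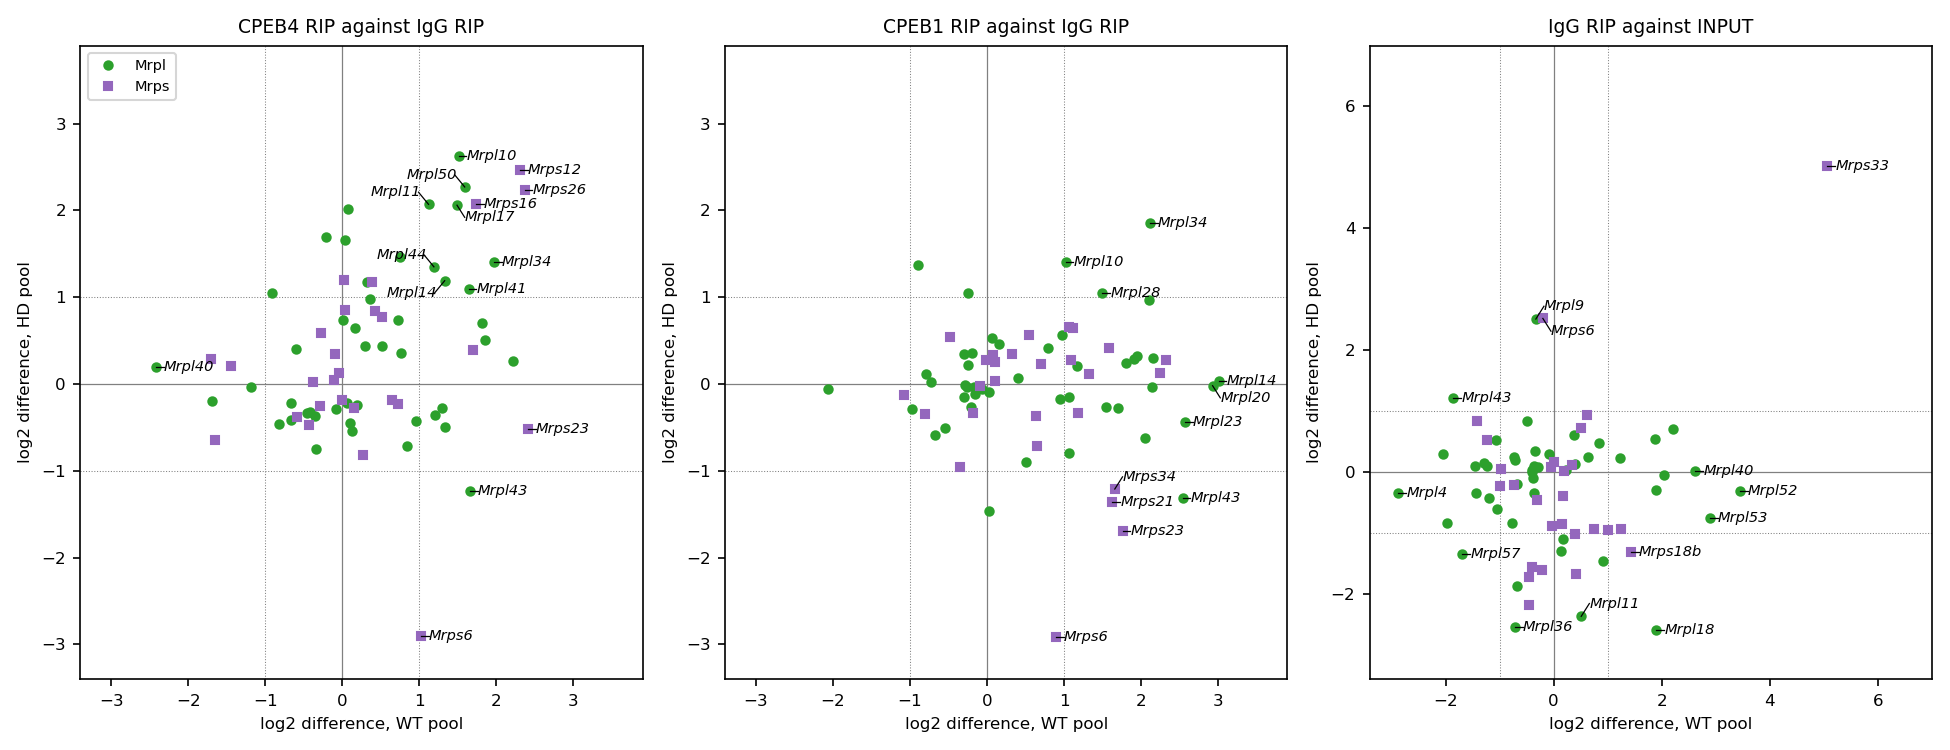
Log2 difference in the HD pool against that in the WT pool for each of the 73 genes, in CPEB4 RIP against IgG RIP (left), CPEB1 RIP against IgG RIP (middle) and IgG RIP against INPUT (right, wider axes); circles are large-subunit and squares small-subunit genes, and dotted lines mark 2-fold. In the left panel 11 of the 68 genes tested lie at 2-fold or more in both pools, in the middle panel 3, and in the right panel Mrps33 stands alone at 5.06 and 5.02.

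In CPEB1 RIP against IgG RIP no gene of the family was called. Limma called 0% of all 11345 genes in this comparison, so the empty count says nothing particular to the family. Without adjustment, 5 genes had p under 0.05, all higher with CPEB1 (7.35%, against 7.37% of all genes tested). At 2-fold in both pools 3 genes were higher (4.41%, against 4.48%) and 0 lower (against 0.458%). These 3 were Mrpl34, Mrpl10 and Mrpl28, all of them counterparts of bacterial proteins of the large subunit. The family's share was near that of all genes by each count. The median difference was 0.24, with 0.64 in the WT pool and 0.02 in the HD pool; without the CPEB1 array of the WT pool it was 0.02.

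Mrpl28, the counterpart of L28, had 8.70 (WT) and 8.09 (HD) with CPEB1, 7.20 and 7.04 with IgG, 6.98 and 7.02 in INPUT and 7.96 and 7.40 with CPEB4. Both CPEB1 arrays were above the other 6, and the difference from IgG was 1.27 ± 0.29 (limma adjusted p = 0.328). Mrpl10 differed from IgG by 1.22 ± 0.42 with CPEB1. Mrpl9 (1.54 ± 0.66), Mrpl14 (1.52 ± 0.78) and Mrps26 (1.30 ± 0.93) were also among the 5 largest of the same sign in both pools. A second probe set of Mrpl9 gave 0.22 (WT) and -0.31 (HD). Mrpl14 shows the gap between the pools: the WT pool had 8.82 with CPEB1 against 5.81 with IgG, and the HD pool 6.23 against 6.19. The 5 most negative with the same sign in both pools were Mrpl40 (-1.06), Mrps18b (-0.65), Mrpl49 (-0.63), Mrpl4 (-0.63) and Mrps15 (-0.61), with limma adjusted p of 0.828 or more. Mrpl40 rested on the IgG array of the WT pool, which read 8.52 while the other 7 arrays lay between 5.89 and 6.45; without that array its difference was 0.14.

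Between the antibodies, CPEB1 RIP against CPEB4 RIP, 0 of 68 genes were called by limma, beside 0.141% of all genes tested. There were 5 at an unadjusted p under 0.05, 2 higher and 3 lower with CPEB1 (15.3% of all genes tested). At 2-fold in both pools 3 genes were lower with CPEB1 (7.82% of all genes tested) and 0 higher (0.74%). The 3 were Mrpl50 (-1.63 ± 0.60), Mrps12 (-1.51 ± 0.55) and Mrps16 (-1.35 ± 0.42), with limma adjusted p of 0.311, 0.306 and 0.269. They are 3 of the 5 genes with the largest CPEB4 values over IgG, and the same CPEB4 arrays enter both comparisons. Mrps12 had 7.74 (WT) and 6.31 (HD) with CPEB1, and Mrpl50 had 6.88 and 6.33, each below its 2 CPEB4 values. The second probe set of Mrpl50, near the floor of the array, gave -0.08 (WT) and -0.07 (HD). Mrpl18 (-1.39 ± 1.06) and Mrpl41 (-1.23 ± 0.51) followed. On the other side were Mrpl30 (1.18 ± 0.52), Mrps35 (1.06 ± 0.36), Mrpl20 (1.03 ± 0.74), Mrps27 (0.96 ± 0.61) and Mrpl48 (0.93 ± 0.44). For Mrpl30, Mrpl20 and Mrps27 the CPEB1 array of the WT pool stood apart, at 7.25, 7.70 and 6.39, with the 7 other arrays of each gene at or below 5.40, 5.98 and 4.78.

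Against INPUT, Mrps33 was the single call with each precipitate, as given above. At 2-fold in both pools 6 genes of the family were higher with CPEB4 (11.9% of all genes tested) and 0 lower (1.79%). With CPEB1 4 were higher (3.49%) and 0 lower (1.18%), and with IgG 1 was higher (1.67%) and 1 lower (3.34%). Without adjustment, limma gave p under 0.05 for 9 genes with CPEB4 (26.2% of all genes tested), 10 with CPEB1 (8.07%) and 6 with IgG (9.75%). The median difference from INPUT was 0.21 with CPEB4, 0.11 with CPEB1 and -0.25 with IgG. Without the INPUT array of the WT pool the CPEB4 median was -0.08, and without the CPEB1 array of the WT pool the CPEB1 median was -0.14. The IgG median was -0.04 without the IgG array of the WT pool.

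Besides Mrps33, the genes at 2-fold over INPUT with CPEB4 in both pools were Mrpl52 (2.40 ± 0.86), Mrps12 (2.29 ± 0.55), Mrpl9 (2.27 ± 0.66), Mrpl10 (1.48 ± 0.42) and Mrpl24 (1.41 ± 0.65). Mrpl9 had 6.23 and 5.69 in INPUT, 8.00 and 9.17 with CPEB1 and 7.76 and 8.71 with CPEB4, but with IgG 5.90 in the WT pool and 8.20 in the HD pool. Its IgG value was therefore at INPUT in the WT pool and near the antibodies in the HD pool. Mrpl52 had 5.43 in INPUT of the WT pool and 7.69 in that of the HD pool, while its 6 precipitates lay between 7.37 and 9.02; a second probe set gave nearly the same 8 values. The other 2 probe sets of Mrpl52 differed: for CPEB4 minus INPUT, 1 gave 2.93 (WT) and -1.41 (HD), with both IgG values at 5.34, and the other gave -0.85 and -0.43. With CPEB1 the largest after Mrps33 were Mrpl9 (2.63 ± 0.66), Mrpl52 (1.96 ± 0.86), Mrpl30 (1.75 ± 0.52) and Mrpl28 (1.40 ± 0.29). A second probe set of Mrpl30 was lower with CPEB1 than in INPUT in both pools (-0.11 in WT and -0.30 in HD). Those of Mrpl9 (0.45 and -0.27) and Mrpl28 (0.75 and -0.15) went opposite ways in the pools. For Mrpl52 the last probe set named above gave -0.36 and 0.28, and its others were higher with CPEB1 in both pools. In IgG RIP, among genes with the same sign in both pools and after Mrps33, Mrpl58, a peptidyl-tRNA hydrolase built into the large subunit, differed from INPUT by 1.46 ± 0.44, followed by Mrpl40 (1.32 ± 0.70), Mrpl48 (1.21 ± 0.44) and Mrps24 (0.78 ± 0.43). The Mrpl40 difference was 2.62 in the WT pool and 0.01 in the HD pool, so it rested on the WT pool. A second probe set was lower with IgG than in INPUT in both pools for Mrpl48 (-1.48 and -0.91) and for Mrps24 (-0.49 and -2.76).

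Mrpl4, the counterpart of L4 at the exit tunnel, was lower than INPUT in each precipitate. It had 9.63 (WT) and 7.86 (HD) in INPUT, 6.75 and 7.51 with IgG, 6.08 and 6.92 with CPEB1 and 8.05 and 7.23 with CPEB4. The INPUT arrays were the highest in the WT pool and in the HD pool, and the CPEB1 difference was -2.24 ± 0.72 (limma adjusted p = 0.505). Mrpl57 was 2-fold lower with IgG than in INPUT in both pools (-1.51 ± 0.52, limma adjusted p = 0.474). Mrpl36 (-1.64 ± 0.79), Mrpl21 (-1.41 ± 0.67) and Mrps18a (-1.32 ± 0.55) were also low with IgG. Mrpl35, Mrps15 and Mrps18b had differences between -1.09 and -0.96 with CPEB4, and Mrps15, Mrpl33, Mrpl42 and Mrpl21 had differences between -0.96 and -0.77 with CPEB1.

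HD was set against WT within each fraction, 1 array against 1, so these differences have no test. In CPEB1 RIP most of the family was lower in the HD pool. Of the 68 genes, 56 were lower and 12 higher; 25 were 2-fold lower (36.8%, against 17.9% of all genes tested) and 1 was 2-fold higher (against 3.34%). The median over the 73 genes was -0.65, beside a median of 0 over all genes tested. Mrps25 had 7.12 in the WT pool and 4.06 in the HD pool, Mrps21 8.37 and 5.38, Mrpl20 7.70 and 5.05, and Mrpl14 8.82 and 6.23. Other probe sets went the other way for Mrps25 (4.82 and 5.51, and 4.64 and 5.07) and for Mrpl14 (4.98 and 5.35). Mrps21 and Mrpl20 were read by 1 probe set each. Mrpl9, the gene 2-fold higher in HD, had 8.00 and 9.17, and Mrps2 (0.90), Mrpl19 (0.86) and Mrpl4 (0.84) were next. A second probe set of Mrpl9 had 4.60 (WT) and 4.41 (HD). Large and small subunit had medians of -0.52 and -0.67. The median was also negative for cytosolic ribosomal proteins (-0.70) and complex I subunits (-1.46). It was 0.40 for the 4 mitochondrial ribosomal proteins under other names, 0.14 for assembly factors, 0.26 for mitochondrial transcription and mRNA handling, 0.04 for mitochondrial aminoacyl-tRNA synthetases and -0.05 for translation factors.

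Other values also differed between the 2 CPEB1 arrays. The WT array of the CPEB1 RIP had an SD over all genes tested of 1.68 and the HD array of 1.39. The median of the 8 medium spiny neuron markers was 9.38 on the WT and 6.53 on the HD array, while in INPUT it was 7.76 and 6.68. It was lower in HD in the other precipitates too, with 9.35 and 6.24 with IgG and 8.78 and 6.99 with CPEB4, where the family's median difference was 0 and -0.02. Taken marker by marker, the median HD minus WT difference was -0.80 with CPEB1, -1.79 with IgG and -1.04 with CPEB4. The part of these values in the result was not tested. After quantile normalization, which gives the arrays the same spread, the family's median was -0.14, beside 0.13 over all genes tested. Of the 68 genes, 15 were then 2-fold lower, against 11.6% of all genes tested. A further 6 were 2-fold higher, for which the share of all genes was not computed.

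In the other fractions the family's median stayed between -0.02 and 0. In INPUT 12 of 68 genes were 2-fold higher in HD (11.3% of all genes tested) and 2 lower (4.43%). Mrps26 (5.66 in WT and 8.65 in HD), Mrpl11 (5.31 and 7.70), Mrps18b (6.75 and 9.13) and Mrpl52 (5.43 and 7.69) were the highest in HD. Mrpl39 (6.71 and 4.74) and Mrpl4 (9.63 and 7.86) were the 2 lower genes, with Mrpl21 (-0.92) and Mrps34 (-0.83) next. A second probe set of Mrpl21 went the other way (6.59 and 9.01). In IgG RIP 8 were 2-fold higher (5.32% of all genes tested) and 10 lower (10%). Mrps6 (5.18 and 7.94), Mrpl43 (4.01 and 6.76), Mrpl9 (5.90 and 8.20) and Mrps23 (4.53 and 6.66) were higher, and Mrpl53 (9.13 and 6.08), Mrpl18 (6.98 and 4.18), Mrpl40 (8.52 and 6.02) and Mrpl27 (6.16 and 4.46) lower. In CPEB4 RIP 8 were 2-fold higher (4.55% of all genes tested) and 7 lower (11.6%). There Mrps34 (5.21 and 6.90), Mrpl42 (3.60 and 5.27), Mrps5 (7.82 and 9.38) and Mrpl37 (4.67 and 5.97) were higher in HD. Mrps10 (-1.52), Mrpl20 (-1.26), Mrpl24 (-1.17) and Mrpl23 (-1.16) were lower in HD. Mrpl20 was among the 4 lowest with each antibody.

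**Figure D4:**
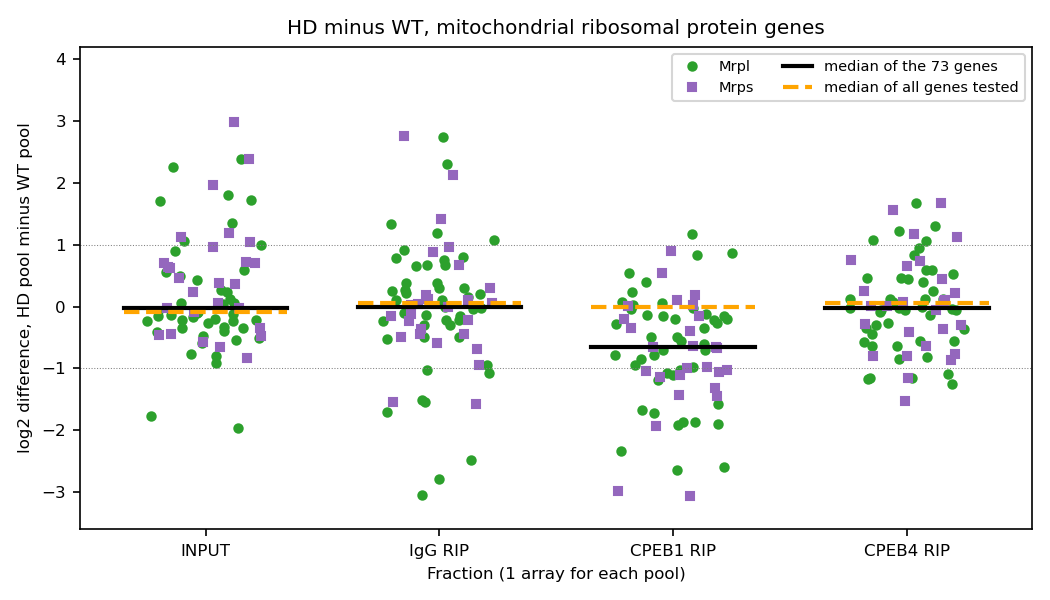
Log2 difference of the HD array minus the WT array for each of the 73 genes in each fraction (circles, large subunit; squares, small subunit; black line, their median; dashed line, median of all genes tested; dotted lines, 2-fold). In CPEB1 RIP the median is -0.65, and in the other 3 fractions it lies between -0.02 and 0.

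The rest of the mitochondrial translation machinery was read through 5 lists with 51 genes on the array, 37 of them tested. None was called by limma in any of the 6 comparisons; in CPEB4 RIP against IgG RIP 4 had an unadjusted p under 0.05 (10.8%, against 22.9% of all genes tested) and 2 were 2-fold higher in both pools (5.41%, against 14.3%). Those 2 were Gadd45gip1, a mitochondrial ribosomal protein under another name, and Fars2, the mitochondrial phenylalanyl-tRNA synthetase. Gadd45gip1 had 6.69 and 7.26 with CPEB4 against 5.67 and 6.11 with IgG (1.09 ± 0.36). Fars2 had 6.27 and 5.34 with CPEB4, with INPUT at 2.98 in the WT and 6.73 in the HD pool. Its IgG values of 2.64 and 2.89 lie below 4.23, and its mean exceeded 4.23 only through the CPEB4 and HD INPUT arrays, so no size of the difference is given. Chchd1 (0.61) and Dap3 (0.58), also ribosomal proteins under other names, were next, and all 4 genes of that list had a median of 0.59.

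Among 8 translation factors the median was -0.17, with Tsfm, the elongation factor Ts, at 1.01 ± 0.28, Gfm1 at 0.49 (not tested) and Gfm2 at -0.46. Among 17 assembly factors it was 0.02, with Mterf4 at -1.51 ± 0.44, Rbfa at 1.14 ± 0.30 and Mterf3 at 0.92 (not tested). The 15 mitochondrial aminoacyl-tRNA synthetases had a median of -0.08, with Hars2 (0.72, not tested) and Iars2 (-0.70) after Fars2. The 7 genes of mitochondrial transcription and mRNA handling had a median of -0.10, with Polrmt, the mitochondrial RNA polymerase, at -1.86 (not tested), Tfam at 0.88 and Tefm at -0.64. Polrmt rested on the IgG array of the WT pool, 6.61, where the 7 other arrays were at 3.80 or below.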

How the data were processed

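RNA of 4 fractions of 2 pools of mouse striatum was amplified over 27 cycles, with 8 µg of cDNA per Affymetrix array, per the labels' protocols. The deposited log2 values were made by the authors with RMA, per the submitters' processing notes, and were used without further scaling; no source used here says whether the 8 arrays were summarised together. Of 45101 probe sets, 28898 carry 1 symbol, 551 several and 15652 none; symbols of 28689 were matched through RefSeq (GRCm38.p6). The fit used limma 3.58.1 in R 4.3.3 (fraction plus pool, 8 arrays, 3 residual and 2.29 prior degrees of freedom, two-sided, Benjamini-Hochberg over 11345 genes) and was tested on simulated data. A difference between the pools that all fractions share is fitted as the block. A difference between the pools that changes with the fraction counts as error. The pairing of fractions by pool comes from the labels. The number of arrays limits the precision. Errors are SE of this fit. Members and lists were chosen with earlier results of these data known. Named genes were members past the test, the 5 largest each way per comparison with the same sign in both pools, the 6 highest and 4 lowest in INPUT, the 4 largest each way for HD minus WT, Mrps18a, Mrps18b, Mrpl12, Mrpl3, Mrps22, Mrpl44 and, of each other list, called genes and the 3 largest CPEB4 minus IgG differences; genes named for 2-fold in both pools were chosen after their values were seen. The alternatives were other filters, probe set means, scalings, fits without the block or other fractions, fold thresholds and leaving out each array.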

Additional observations from a re-analysis of the deposited data

Results flagged for a closer look

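Several differences went in opposite directions in the 2 pools, which was seen on single arrays and not tested. For CPEB4 minus IgG, Mrps6 had 1.02 in the WT pool and -2.90 in the HD pool, a gap of -3.91 (HD minus WT). Mrpl43 had 1.66 and -1.23, a gap of -2.88. For CPEB1 minus IgG, the gap was -3.85 for Mrpl43 (2.54 and -1.31), -3.45 for Mrps23 (1.76 and -1.69), -2.99 for Mrps21 (1.63 and -1.36) and -2.87 for Mrps34 (1.66 and -1.21). Mrpl43 appears with both antibodies, which share its IgG values of 4.01 and 6.76. The median of the 73 genes was 0.34 (WT) and -0.19 (HD) for CPEB1 minus CPEB4, a gap of -0.54, and 0.60 and -0.09 for CPEB1 minus INPUT, a gap of -0.69.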

How the results depend on the processing

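With 1 array per group, every p-value rests on the disagreement of 2 pools, and signal over background limits the genes near 4.23. In CPEB4 RIP against IgG RIP, 1 member, Mrpl34, was called with no filter (limma adjusted p = 0.0466), with median centring (0.0392) and without the pool block (0.0347); over its 17 alternatives the adjusted p ran from 0.0347 to 0.253. Mrps33 was the only member called against INPUT, and 0 members were called with any 1 array left out (0 to 0) and with only the 2 fractions compared, in all 3 comparisons. The count was also 0 with quantile normalization for CPEB4, with median centring and trended robust eBayes for CPEB1, and with trended robust eBayes for IgG. Its limma adjusted p ran from 0.0138 to 0.239 with CPEB4, from 0.0115 to 0.517 with CPEB1 and from 0.0123 to 0.492 with IgG. The cause of these changes was not tested.

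The median CPEB4 minus IgG difference was 0.19 with cyclic loess, -0.16 with quantile normalization, 0.43 with median centring, 0.42 with the 75th percentile filter and from 0.02 to 0.36 with 1 array left out. Over all genes tested it was 0.03 with cyclic loess, -0.24 with quantile normalization, 0.10 with median centring and 0.34 with the 75th percentile filter. CPEB4 minus INPUT was 0 with quantile normalization and from -0.08 to 0.47 with 1 array left out; IgG minus INPUT was -0.14 with cyclic loess, -0.13 with quantile normalization and from -0.36 to -0.04 with 1 array left out. The medians of CPEB1 minus IgG, CPEB1 minus CPEB4 and CPEB1 minus INPUT ran from 0.02 to 0.60, from -0.24 to 0.27 and from -0.14 to 0.48 with 1 array left out. Members at 2-fold between HD and WT (either direction, all 73) were 15 in INPUT (30 at 1.5-fold), 18 in IgG RIP (10 with each gene's probe sets averaged, 32 at 1.5-fold, 8 at 3-fold), 26 in CPEB1 RIP (17, 43 and 12) and 16 in CPEB4 RIP (32 at 1.5-fold, 2 at 3-fold). Of all genes tested, 11.3% were 2-fold higher and 4.43% lower in INPUT, and 5.32% and 10% in IgG RIP. The shares were 3.34% and 17.9% in CPEB1 RIP, and 4.55% and 11.6% in CPEB4 RIP. With probe sets averaged, 7.6% were 2-fold lower in IgG RIP and 15.5% in CPEB1 RIP. Shares at 1.5-fold and 3-fold were not computed, so those counts say nothing particular to the family.

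Of 71 named values 59 never changed sign. With each gene's probe sets averaged, CPEB1 minus CPEB4 became -0.28 for Mrpl34 and 0.27 for Mrpl44 (0.05 with quantile normalization), CPEB1 minus INPUT 0.06 for Mrps15 and IgG minus INPUT -0.42 for Mrps24. Leaving out 1 array gave ranges that crossed 0: for CPEB4 minus IgG, Mrpl27 (-1.29 to 0.08); for CPEB1 minus IgG, Mrps26 (-0.04 to 2.64), Mrpl40 (-2.27 to 0.14), Mrps18b (-1.58 to 0.28) and Mrpl4 (-1.35 to 0.10); for CPEB1 minus CPEB4, Mrpl20 (-0.12 to 2.18); and against INPUT, Mrps18b with CPEB4 (-2.39 to 0.22) and Mrpl21 with CPEB1 (-1.62 to 0.09).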
